A study of Mus musculus with 14 samples.

Results

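The immunity-related GTPases were followed as 8 genes, Irgm1, Irgm2, Igtp, Iigp1, Tgtp1, Tgtp2, Gm12250 and Ifi47, taken by their symbols from the 17656 genes listed for every liver. All 8 were found, and all 8 passed the filter on low values in each comparison. Expression was measured by RNA sequencing of total RNA from the livers of 14 male C57BL/6 mice, taken as 8 weeks old, 1 library per mouse. Strain, sex, dose and age come from the study, which states 8 weeks for some experiments and a wider range for its mice in general. The study asked how loss of YTHDF1, a protein that reads the m6A mark on mRNA, alters hepatitis caused by concanavalin A (ConA), a plant lectin that activates T cells. The 4 groups were 3 wildtype mice given saline (WT saline), 3 mice labelled Ythdf1 knockout given saline (KO saline), 4 wildtype mice given ConA at 8 mg/kg (WT ConA) and 4 mice labelled Ythdf1 knockout given the same dose (KO ConA). Injections were into a vein, and livers were taken 8 hours later. Per the study, the knockout was made with CRISPR/Cas9 in the whole animal and WT mice were littermates, so every cell type of the liver carries the deletion.

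Values are TPM, the share of a library's transcripts corrected for transcript length, and can therefore be set side by side between genes. Read depth is not part of the files, so the spread between mice was the only error available. As a check of the genotype, Ythdf1 itself was 12.03, 13.92 and 13.28 TPM in the WT saline livers and 20.77, 18.44 and 18.56 TPM in the livers labelled KO saline. After ConA it was 25.63, 21.44, 18.74 and 20.31 TPM in WT and 25.89, 26.17, 15.54 and 21.27 TPM in livers labelled KO. Ythdf1 mRNA was thus not lower in the libraries labelled KO (in saline it was higher by 0.53 log2 units, limma adjusted p = 0.0181, and 0.0825 with the close pair counted as 1 mouse), and a whole-gene value does not show whether part of the gene was removed. Every genotype direction given here rests on the labels alone. Over the 100 genes most variable among the KO saline livers, WT saline replicates 2 and 3 had a median absolute log2 ratio of 0.116. Every other 2 livers of 1 group gave 0.244 to 1.81 there, with the KO saline pairs (1.19 to 1.81) wide by that choice. Over the 8 members this pair gave 0.125, and WT ConA replicates 1 and 2 were closer (0.0962). Calls that rest on WT saline are also given with the mean of this pair counted as 1 mouse, for the 8 genes and for other named genes between the genotypes. Rescaling the libraries to a common median moved the median gene by 0.32 log2 units in WT ConA replicate 3 and by -0.23, -0.15 and 0.23 in KO ConA replicates 1, 2 and 3, and by less than 0.1 in the other libraries. For the 8 genes and for the interaction calls of other named genes, calls and directions that change with this rescaling are named beside the result.

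Immunity-related GTPases, or IRG proteins, are large GTPases that interferons induce in mouse cells and that defend a cell from within against parasites and bacteria living in vacuoles. They come in 2 kinds. The regulatory kind, Irgm1, Irgm2 and Igtp (also known as Irgm3), sits on the cell's own membranes and keeps the other kind switched off there. The effector kind, Iigp1 (Irga6), Tgtp1 and Tgtp2 (both Irgb6), Gm12250 (Irgb10) and Ifi47 (Irgd), loads onto the membrane of a pathogen's vacuole and breaks it, a step in which proteins of the autophagy conjugation machinery and guanylate-binding proteins take part. The main inducer is interferon gamma, which T cells and natural killer cells release, and which is a known driver of ConA hepatitis. Interferons act on promoters through short elements called GAS and ISRE, and interferon regulatory factors bind the ISRE.

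In GRCm38.p6, 7 of the 8 genes lie on chromosome 11 in a pair of groups. Irgm1 (gene ID 15944, chr11:48865245-48871420), Tgtp1 (gene ID 21822, chr11:48985329-48992246), Tgtp2 (gene ID 100039796, chr11:49057196-49064212) and Ifi47 (gene ID 15953, chr11:49076587-49096987) form the first group. Gm12250 (gene ID 631323, chr11:58183843-58190198), Igtp (gene ID 16145, chr11:58199556-58207592) and Irgm2 (gene ID 54396, chr11:58214977-58222783) form the second. Iigp1 lies apart on another chromosome.

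The RefSeq promoter table for this build, with 250 bases before and 50 after each start, held 7 of the 8 genes, all except Iigp1. They were searched on both strands for an ISRE pattern, GAAA, any 2 bases and GAAA, and for a GAS pattern, TTCNNNGAA. An ISRE match was found in 6 of the 7 promoters and a GAS match in 5 of the 7, against 3.44% and 8.30% of all 32851 promoters in the table. Igtp, Irgm2, Tgtp1 and Tgtp2 shared a tighter layout, in which the GAS match, 2 bases and the ISRE match follow each other. That layout was present in 5 promoters of the whole table (0.0152%), and the fifth was that of Gm12185, another gene of the IRG family on chromosome 11. The layout was defined from these promoters, and they belong to related genes, so its rarity is a description and not a test. The stretches that hold the matches are shown because they are what these genes have in common upstream, with the GAS and ISRE matches in capitals.
Igtp, chr11:58199487-58199555, plus strand: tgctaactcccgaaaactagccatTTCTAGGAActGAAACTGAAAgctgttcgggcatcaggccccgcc
Irgm2, chr11:58214878-58214947, plus strand: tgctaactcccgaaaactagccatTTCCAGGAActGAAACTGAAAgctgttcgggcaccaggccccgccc
Tgtp1, chr11:48992289-48992358, minus strand: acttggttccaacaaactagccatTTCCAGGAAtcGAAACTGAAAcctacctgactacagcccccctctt
Tgtp2, chr11:49064248-49064317, minus strand: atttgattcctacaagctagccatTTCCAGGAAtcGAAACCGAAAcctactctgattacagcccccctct
Irgm1, chr11:48871421-48871485, minus strand: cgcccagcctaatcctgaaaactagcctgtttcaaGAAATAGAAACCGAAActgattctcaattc
Gm12250, chr11:58183717-58183831, plus strand: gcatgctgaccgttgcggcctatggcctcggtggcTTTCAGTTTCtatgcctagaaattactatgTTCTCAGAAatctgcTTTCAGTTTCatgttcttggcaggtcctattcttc
Irgm1 held 2 ISRE matches that overlap by 4 bases and no GAS match. Gm12250 held 2 ISRE matches on the other strand with a GAS match between them. Ifi47 held neither pattern in this window. The longest run of bases shared by 2 of these promoters was 55 bases, between Igtp and Irgm2, while Tgtp1 and Tgtp2 shared 27. A match describes the letters in the window and not binding.

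How well single genes of the family can be told apart was tested on the transcripts of the GENCODE vM21 annotation, because the reads were 50 bases long. Of all 50-base stretches, 99.0% of those in Irgm1, 92.6% in Irgm2, 87.7% in Igtp, 96.8% in Iigp1 and 96.3% in Ifi47 were found in no other gene, and so were all of those in Gm12250. For Tgtp1 the share was 8.58% and for Tgtp2 9.42%, since 89.4% of the stretches of Tgtp1 also occur in Tgtp2. The division of reads between Tgtp1 and Tgtp2 is therefore uncertain, and their sum is given beside the single values.

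In the livers given saline, Iigp1 (gene ID 60440, chr18:60373616-60392634) was the most abundant of the 8 genes. Iigp1, an effector known to be made in healthy mouse liver, was 194, 199.6 and 219.8 TPM in WT and 168, 146 and 191 TPM in KO. Its lowest value in either genotype was above the highest value of Igtp, the next in order. The regulatory genes came next. Igtp was 46.1, 73.6 and 77.0 TPM in WT saline and 50.3, 55.8 and 57.0 TPM in KO saline, and Irgm1 was 44.8, 59.3 and 59.7 TPM in WT and 31.2, 31.0 and 43.5 TPM in KO. The ranges of Igtp and Irgm1 overlapped in WT but not in KO, although Igtp was the higher of the pair in every one of these 6 livers. Irgm2, the least abundant regulatory gene, was 18.8, 25.65 and 25.5 TPM in WT saline and 11.3, 10.7 and 19.3 TPM in KO saline. Ifi47 was at the level of Irgm2, with 22.7, 22.1 and 24.3 TPM in WT and 12.4, 13.97 and 18.7 TPM in KO. The remaining effectors were near the limit at which a gene was tested. Tgtp1 was 1.45, 1.59 and 1.82 TPM in WT saline and 1.87, 4.16 and 2.92 TPM in KO saline. Tgtp2 was 1.43, 0.78 and 0.45 TPM in WT and 2.60, 0.49 and 1.35 TPM in KO. Gm12250 was 0.97, 2.20 and 1.70 TPM in WT and 0.70, 0.83 and 1.19 TPM in KO. The ranges of these genes overlapped one another within each genotype, except that Tgtp1 lay above Tgtp2 in WT and above Gm12250 in KO. The 8 genes thus covered a span from below 1 to over 200 TPM in the same livers.

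**Figure D1:**
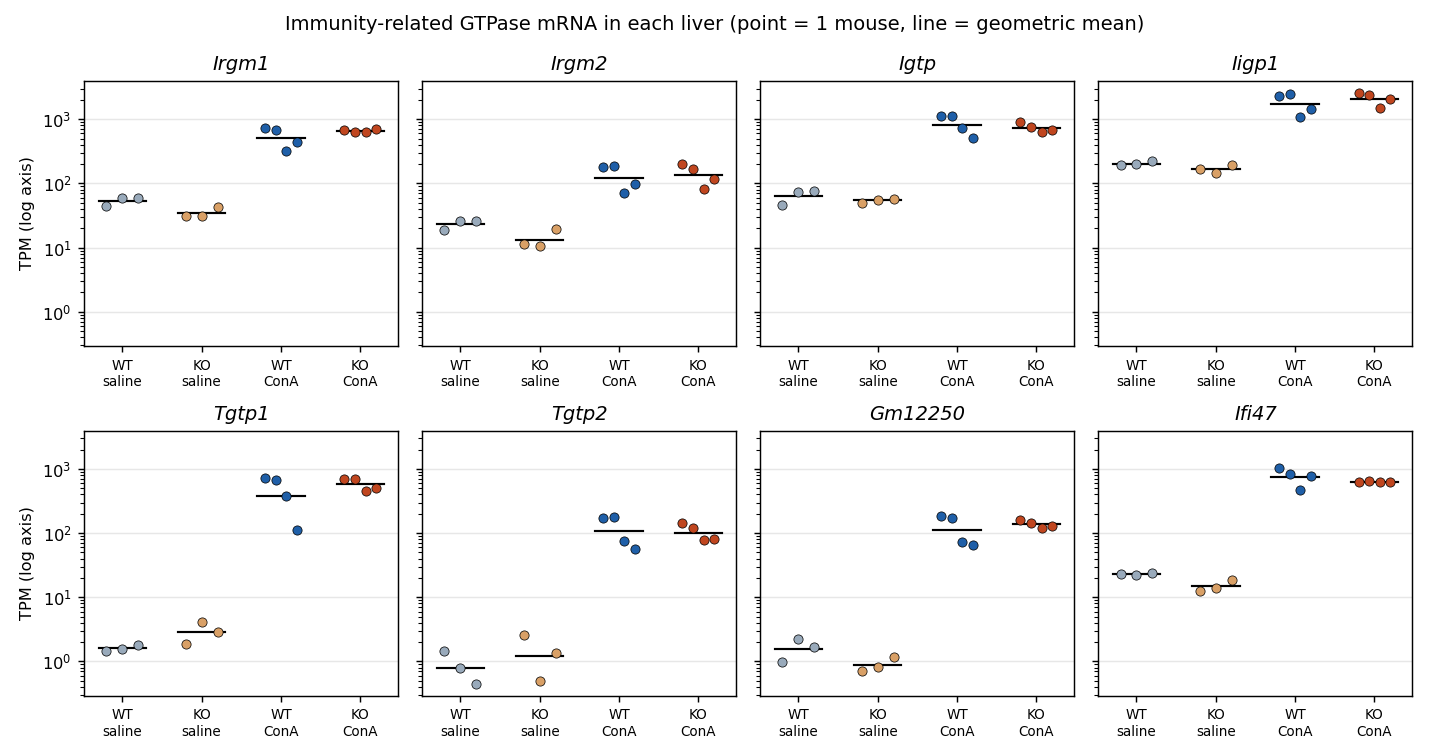
TPM of the 8 immunity-related GTPase genes in each liver, on a log axis, for WT saline (3 mice), KO saline (3), WT ConA (4) and KO ConA (4). Each point is 1 mouse and each line the geometric mean of its group. In every panel all ConA livers lie above all saline livers, and the WT and KO points overlap after ConA.

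To see what ConA did to the family in wildtype liver, WT ConA was compared with WT saline. All 8 genes rose, and the ConA and saline ranges of none of them overlapped. Over all 10768 genes tested, 53.0% were called in either direction and 22.0% were called higher, and 23.3% lay wholly higher in ConA. The median log2 fold change of the 8 genes was 4.32, against -0.07 over all genes tested. Tgtp2 and Gm12250 were at 1 TPM or more in fewer than 3 of the saline livers and passed the filter through the ConA livers, so that their rise was in part set by the filter, and the count and the median are given as a description. The median of the other 6 was 3.45.

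Among the effectors, Tgtp1 was 722, 676, 376 and 110.5 TPM in the 4 WT ConA livers. Its mean was 291 times that in saline, with a log2 fold change of 7.18 ± 0.56 (SE, n = 4 and 3, limma adjusted p = 9.81e-06). Replicate 4 stood lowest, and without it the log2 fold change was 7.77. Tgtp2 was 169.6, 181, 75.2 and 57.2 TPM, 136 times the saline mean (log2 fold change 5.88 ± 0.40, limma adjusted p = 4.81e-06). Because the 2 genes share most of their sequence, the sum of both is the firmer value, and it rose by 7.14 ± 0.50 log2 units (limma adjusted p = 5.89e-06). Gm12250, whose protein acts with guanylate-binding proteins on bacteria as well as parasites, was 188, 172, 71.9 and 66.3 TPM, 76.7 times the saline mean (log2 fold change 5.45 ± 0.38, limma adjusted p = 5.91e-06). Ifi47 was 1018, 841, 471 and 778 TPM, 33.7 times the saline mean (log2 fold change 4.96 ± 0.23, limma adjusted p = 6.52e-07). From a level like that of Irgm2 in saline, Ifi47 thus reached the level of the abundant genes of the family. Iigp1 was 2311, 2439, 1098 and 1445 TPM, the highest level of the family, and 8.91 times its saline mean (log2 fold change 3.08 ± 0.26, limma adjusted p = 1.68e-05).

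The regulatory genes rose by smaller ratios than 4 of the 5 effectors, all except Iigp1. Igtp was 1113, 1139.9, 732 and 503 TPM, 13.3 times the saline mean (log2 fold change 3.67 ± 0.30, limma adjusted p = 1.33e-05). Irgm1, which is also known for a part in autophagy and mitochondrial quality, was 730.1, 672, 319.8 and 442 TPM, 9.91 times the saline mean (log2 fold change 3.22 ± 0.27, limma adjusted p = 1.65e-05). Irgm2 was 180.4, 187, 70.25 and 96.5 TPM, 5.72 times the saline mean (log2 fold change 2.36 ± 0.33, limma adjusted p = 0.000304). Ranked by log2 fold change among all 10768 genes tested, Tgtp1 stood at 8, Tgtp2 at 19, Gm12250 at 25, Ifi47 at 37, Igtp at 86, Irgm1 at 118, Iigp1 at 134 and Irgm2 at 242. The 4 genes with the largest ratios started from the 4 lowest mean levels of the family in WT saline (Ifi47 and Irgm2 hardly differed there), and Iigp1, with the second smallest ratio, from the highest.

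The same comparison in the mice labelled KO gave a rise of all 8 genes as well, again with no overlap between ConA and saline. Of the 10988 genes tested there, 64.6% were called, 33.9% were called higher and 32.8% lay wholly higher in ConA. The median log2 fold change was 4.77 for the 8 genes and 0.07 over all genes tested. Tgtp2 and Gm12250 again passed the filter through the ConA livers, and the median of the other 6 was 3.97.

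Tgtp1 was 704, 700.4, 451 and 513 TPM in the KO ConA livers, 198 times the KO saline mean (log2 fold change 7.23 ± 0.22, n = 4 and 3, limma adjusted p = 1.55e-09). Tgtp2 was 143, 119, 79.3 and 80.5 TPM (71.4 times the saline mean, log2 fold change 5.47 ± 0.29, limma adjusted p = 9.74e-08), and the sum of both rose by 6.97 ± 0.17 log2 units (limma adjusted p = 3.70e-10). The 2 livers highest in Tgtp1 were also the 2 highest in Tgtp2. Gm12250 was 160.0, 142, 120.0 and 128 TPM, 152 times the saline mean, which was below 1 TPM (log2 fold change 6.18 ± 0.15, limma adjusted p = 3.79e-10). Ifi47 was 624, 650.4, 633 and 618 TPM, 42.0 times the saline mean (log2 fold change 5.32 ± 0.14, limma adjusted p = 4.41e-10). Iigp1 was 2559, 2414, 1481 and 2068 TPM, 12.6 times the saline mean (log2 fold change 3.63 ± 0.19, limma adjusted p = 7.10e-08). Iigp1 was again the most abundant gene of the family in all 4 livers.

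Of the regulatory genes in KO ConA, Igtp was 908, 754, 629.9 and 670.2 TPM, 13.6 times the saline mean (log2 fold change 3.73 ± 0.14, limma adjusted p = 7.57e-09). Irgm1 was 691, 643, 625 and 703 TPM, 18.9 times the saline mean (log2 fold change 4.22 ± 0.14, limma adjusted p = 2.76e-09). Irgm2 was 198, 166, 82.3 and 117 TPM, 10.2 times the saline mean (log2 fold change 3.23 ± 0.29, limma adjusted p = 3.57e-06). The order of the genes, by ratio and by log2 fold change, began with Tgtp1, Gm12250, Tgtp2 and Ifi47 and ended with Irgm2, as the plot of both responses shows. All 8 genes stayed called in both genotypes when any 1 library was left out. With WT saline replicates 2 and 3 counted as 1 mouse, all 8 also stayed called in WT.

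**Figure D2:**
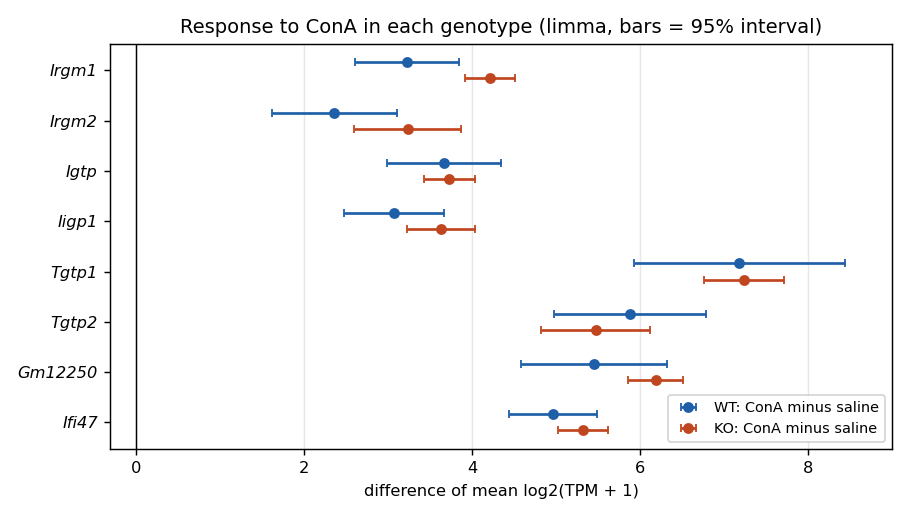
Difference of mean log2(TPM + 1) between ConA and saline for each gene, in WT (4 against 3 mice) and in mice labelled KO (4 against 3). Points are limma estimates and bars their 95% intervals. Every interval lies above 0, from Irgm2 in WT (2.36) to Tgtp1 in KO (7.23).

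To ask whether the family differed by genotype before any challenge, KO saline was compared with WT saline. 2 of the 8 genes, Ifi47 and Irgm1, were called lower in KO and none higher. Over all 10459 genes tested 19.2% were called and 12.9% were called lower, so the members' count lay near that background. Ifi47 differed by -0.60 ± 0.14 log2 units (SE, n = 3 and 3, limma adjusted p = 0.0318) and Irgm1 by -0.62 ± 0.17 (limma adjusted p = 0.0423). Neither call held with WT saline replicates 2 and 3 counted as 1 mouse (limma adjusted p = 0.118 and 0.151), and that of Irgm1 was also lost after rescaling (0.0567). The number of members called ranged from 0 to 5 when 1 library was left out: 0 without WT saline replicate 2 and 5 without WT saline replicate 1. The KO and WT ranges did not overlap for Irgm1, Iigp1 and Ifi47, which were lower in each KO liver, and for Tgtp1, which was higher in each. For comparison, 29.2% of all genes tested lay wholly lower in KO and 13.0% wholly higher. Irgm2 differed by -0.75 ± 0.22 (limma adjusted p = 0.0533), Gm12250 by -0.44 ± 0.19 (0.136), Iigp1 by -0.28 ± 0.12 (0.116) and Igtp by -0.23 ± 0.19 (0.388), none of them past the threshold. The median over all genes tested was itself -0.10. Tgtp1 differed by 0.57 ± 0.20 (limma adjusted p = 0.0839) and Tgtp2 by 0.34 ± 0.33 (0.472), in the other direction. Their sum was 2.88, 2.37 and 2.27 TPM in WT and 4.47, 4.65 and 4.27 TPM in KO, and it passed the threshold as higher in KO (log2 fold change 0.64 ± 0.10, limma adjusted p = 0.0145). That call was also lost with the 2 close WT saline livers counted as 1 mouse (0.61, limma adjusted p = 0.0816).

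Summed levels of the 10 markers of Kupffer cells and macrophages ran from 122 to 198 TPM in WT saline, and in KO saline from 59.7 to 137 TPM. All 10 had a negative log2 difference, with a median of -0.54 and none called. Those of sinusoidal endothelium, 7 genes, summed to 22.3 to 30.95 TPM in WT saline and ran from 34.5 to 57.9 TPM in KO saline. Of the 6 tested, 3 were called higher, with a median of 0.60, beside 659 of all 10459 genes tested. These 3 calls are not given with the close pair of WT saline livers counted as 1 mouse. T cell markers summed to between 1.25 and 2.12 TPM in WT saline, below every KO saline sum (2.86 to 3.60 TPM). Neutrophil, hepatocyte, natural killer cell and B cell sums overlapped between the genotypes. The part of these shifts in the values of the 8 genes was not tested. In bulk liver, fewer cells of a type and less RNA per cell cannot be told apart.

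After ConA, no gene of the family passed the limma test between KO and WT. None of the 8 was called and the ranges of all 8 overlapped, while 0.428% of the 10519 genes tested were called and 10.5% had ranges that did not overlap. Each 95% interval of the difference contained 0 for the 8 genes. The share of all genes tested for which that holds is not given here, so this is a description. The largest estimate was that of Tgtp1 (0.62 log2 units, 95% interval -0.46 to 1.70, limma adjusted p = 0.578), but it rested on WT ConA replicate 4, without which it was 0.03. Irgm1 differed by 0.37 (-0.13 to 0.88), Gm12250 by 0.29 (-0.41 to 0.99), Iigp1 by 0.27 (-0.31 to 0.85) and Irgm2 by 0.12 (-0.64 to 0.87). The negative estimates were Tgtp2 with -0.07 (-0.86 to 0.72), Igtp with -0.17 (-0.71 to 0.37) and Ifi47 with -0.24 (-0.69 to 0.20). The sum of Tgtp1 and Tgtp2 differed by 0.48 ± 0.45 (limma adjusted p = 0.645). These intervals still allow differences of more than 1 log2 unit for Tgtp1 and of more than 0.8 in 1 direction for Gm12250, Irgm1, Irgm2 and Iigp1 (higher in KO) and for Tgtp2 (lower in KO). The median difference was 0.19 for the family and 0.06 over all genes tested.

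**Figure D3:**
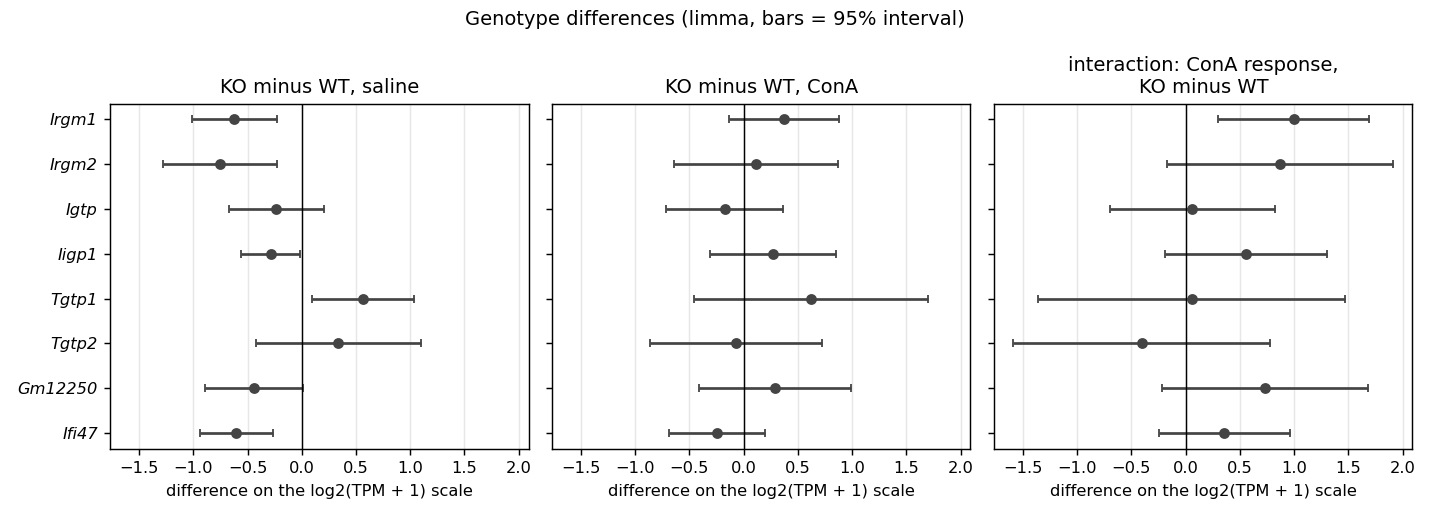
Differences between mice labelled KO and WT mice on the log2(TPM + 1) scale, in saline (left), after ConA (middle) and as the interaction (right, the ConA response in KO minus that in WT). Points are limma estimates and bars 95% intervals, not adjusted for the number of genes. After ConA all 8 intervals contain 0, and in the interaction only that of Irgm1 does not (0.30 to 1.69).

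The interaction asked whether the response to ConA itself differed between the genotypes. None of the 8 genes was called by limma, while 4.78% of the 11327 genes tested were. The share of all genes tested with an unadjusted p under 0.05 is not given here, so that level says nothing about the family. Among the 8 it was reached by Irgm1 alone. Its estimate, KO minus WT, was 0.99 ± 0.33 log2 units (95% interval 0.30 to 1.69, limma adjusted p = 0.0853), and it passed the threshold when WT ConA replicate 1 was left out (1.16, limma adjusted p = 0.0437). Leaving out other libraries gave values down to 0.77, without WT ConA replicate 3, and adjusted p up to 0.201, and with the close pair of WT saline livers counted as 1 mouse it was 0.93 (limma adjusted p = 0.198). Estimates for the others were 0.87 for Irgm2, 0.73 for Gm12250, 0.56 for Iigp1, 0.36 for Ifi47, 0.06 for Igtp, 0.05 for Tgtp1 and -0.41 for Tgtp2, with limma adjusted p from 0.275 to 0.965. The signs of Igtp and Tgtp1 were not stable, turning to -0.08 and -0.06 after rescaling each library to a common median. For Irgm1 and Irgm2 most of the estimate came from the saline side, where KO was lower by 0.62 and 0.75, rather than from the ConA side, where it differed by 0.37 and 0.12. The median interaction was 0.46 for the family and 0.14 over all genes tested.

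The family as a share of the liver transcriptome was also compared. The summed level of the 8 genes was 331, 385 and 410.3 TPM in WT saline and 279, 263 and 335 TPM in KO saline. After ConA it was 6431, 6307, 3215 and 3498 TPM in WT and 5987, 5589, 4102 and 4897 TPM in KO. In saline the family thus made up 0.0263% to 0.0410% of all transcripts, and after ConA 0.321% to 0.643%. The 4 WT ConA livers fell into a pair of higher and a pair of lower sums, and the KO ConA livers lay between them.

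The make-up of the family changed with ConA in both genotypes. Iigp1 supplied 51.9% to 60.4% of the summed level in the 6 saline livers and 34.1% to 43.2% in the 8 ConA livers. Ifi47 went from 4.45% to 6.87% in saline to 10.4% to 22.2% after ConA. Tgtp1 went from 0.413% to 1.58% in saline to 3.16% to 12.5% after ConA. None of these ranges overlapped between saline and ConA. The regulatory genes together held 33.2% to 41.2% of the sum in WT saline and 29.8% to 34.9% in WT ConA, ranges that overlapped. In KO they held 33.3% to 37.1% in saline and 28.0% to 32.6% after ConA, ranges that did not overlap. The balance of regulatory to effector mRNA thus moved far less than the level of either. Within Tgtp1 and Tgtp2, Tgtp2 took 13.6% to 16.9% of their sum in KO ConA and 16.6% to 34.1% in WT ConA, where replicate 4 had the highest share. This split rests on the few bases that tell the pair apart.

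**Figure D4:**
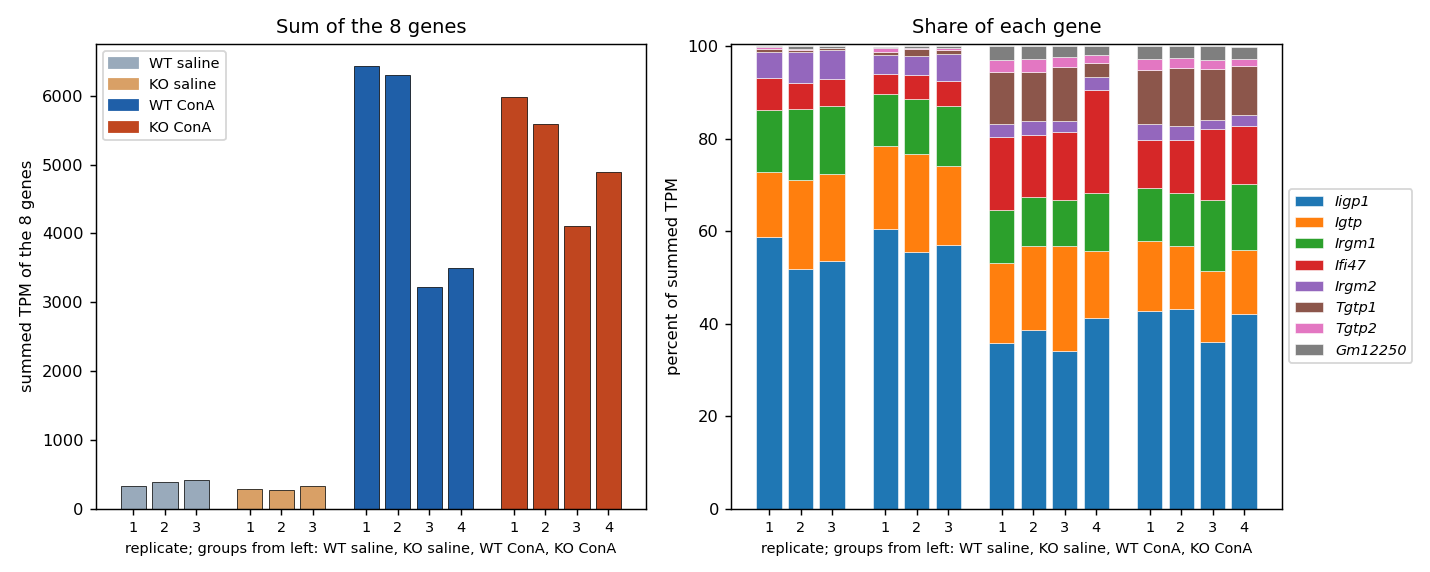
Left, summed TPM of the 8 genes in each liver, with bars coloured by group. Right, the percent of that sum from each gene in the same livers. Sums lie between 263 and 410.3 TPM in saline and between 3215 and 6431 TPM after ConA, and the share of Iigp1 is above 51% in each saline liver and below 44% in each ConA liver.

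Individual livers differed after ConA, and the members moved largely together. In WT ConA, replicates 3 and 4 held the lowest value of 4 genes each, Irgm1, Irgm2, Iigp1 and Ifi47 in replicate 3 and Igtp, Tgtp1, Tgtp2 and Gm12250 in replicate 4. In KO ConA, replicate 3 was lowest for 7 genes, all except Ifi47. The coefficient of variation among the 4 WT ConA livers ran from 29.3% (Ifi47) to 60.5% (Tgtp1), and among the 4 KO ConA livers from 2.22% (Ifi47) to 36.6% (Irgm2). It was smaller in KO for each of the 8 genes, but the genes share libraries and the difference in spread was not tested. Over the 8 ConA livers the correlation (Pearson r of log2 values) between pairs of members ranged from 0.08 (Tgtp1 and Ifi47) to 0.96 (Irgm2 with Iigp1, and Igtp with Tgtp2). With the mean profile of the family it was 0.97 for Gm12250, 0.95 for Tgtp2, 0.93 for Irgm2 and 0.61 for Ifi47. These are descriptions over 8 libraries that also differ in scaling.

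Among the genes closest to the family over all 14 libraries were Tap1 (Pearson r = 0.997 with the mean of the standardised members), Gbp6, Gm4841, Zbp1, Tifa, Xdh, Cd274, Tapbp and Gbp2 (0.993). Several belong to the same interferon response: Tap1 and Tapbp serve peptide loading of MHC class I, Cd274 encodes PD-L1, Zbp1 senses nucleic acids and Gm4841 is another IRG gene. Tap1 was 6.95 to 10.3 TPM in saline and 87.6 to 138 TPM after ConA. With ConA and saline far apart, such an r mainly states that a gene rose. Over the 8 ConA livers alone the list was a different one apart from Gm4841 (0.945): Trafd1 (0.980), Cps1 (0.979), Parp11, Gm12185 (0.973), Ccdc117, Sec14l4, Klhl42, Trim12c and Tnfsf10. Cps1, the urea cycle enzyme of hepatocytes, was 173 to 434 TPM after ConA and 442 to 772 TPM in saline, so it was high in the same ConA livers as the family while its ConA range lay below its saline range.

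The interferon gamma pathway was followed from ligand to targets in a list of 13 genes. In WT, 9 of 12 tested genes were called higher after ConA and none lower, with a median log2 fold change of 1.03. In KO, 11 of 12 were called higher and none lower, with a median of 1.63. Ifng and Socs1 passed the filter only through the ConA livers. Of the other 10, 7 were called higher in WT and 9 in KO, with medians of 0.80 and 1.34. Over all genes tested, 22.0% were called higher in WT and 33.9% in KO. Ifng, the ligand, was at most 0.14 TPM in any saline liver, and was 3.86, 2.46, 1.63 and 1.01 TPM in WT ConA and 6.05, 6.28, 12.1 and 5.02 TPM in KO ConA. All 4 KO ConA livers were above all 4 WT ConA livers, but the difference did not pass the test (log2 difference 1.38, limma adjusted p = 0.0674). Over the 4 WT ConA livers the 2 with the higher Ifng also had the higher family sums, whereas in KO ConA replicate 3 had the highest Ifng and the lowest family sum.

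For the receptor, Ifngr1 was 10.2 to 11.2 TPM in the WT livers given saline and 6.67 to 9.16 TPM in those labelled KO. With ConA the WT livers had 9.90 to 20.01 TPM and the KO livers 19.7 to 24.5 TPM. Ifngr2, the second chain, was 12.1, 12.6 and 13.0 TPM in WT saline and 5.89, 6.15 and 8.40 TPM in KO saline, called lower in KO (log2 difference -0.81, limma adjusted p = 0.0155), a call lost with the 2 close WT saline livers counted as 1 mouse (-0.80, limma adjusted p = 0.0825). After ConA it was 23.2, 24.2, 16.8 and 23.2 TPM in WT and 25.1, 28.5, 26.5 and 29.7 TPM in KO. Its ConA response was larger in KO by 1.14 log2 units (limma adjusted p = 0.0185). That call was lost in the same way (1.12, limma adjusted p = 0.0747). Jak2, a kinase on the receptor, rose in KO (log2 fold change 1.29, limma adjusted p = 2.84e-05), and its value in WT was 0.46 (limma adjusted p = 0.118). The interaction for Jak2 was 0.83 (limma adjusted p = 0.0836).

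Of the transcription factors, Irf1, which activates IRG and GBP genes, was 27.9, 24.4 and 22.7 TPM in WT saline and 15.3, 17.9 and 15.7 TPM in KO saline (log2 difference -0.58, limma adjusted p = 0.0193, and 0.0825 with the close pair counted as 1 mouse). After ConA Irf1 was 345, 352, 213 and 227 TPM in WT and 366, 425, 378 and 376 TPM in KO, where the difference was 0.48 (limma adjusted p = 0.210) although the ranges did not overlap. Its ConA response was larger in KO by 1.06 log2 units (limma adjusted p = 0.0307, and 0.0955 with the 2 close WT saline livers counted as 1 mouse). Irf8 rose by 4.64 in WT and 4.78 in KO. Socs1, an inhibitor of cytokine signalling that the pathway itself induces, rose by 6.05 and 5.91.

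Other large interferon-induced GTPases were compared next. All 9 tested guanylate-binding protein genes rose in both genotypes, with a median log2 fold change of 4.10 in WT and 4.96 in KO. Among all genes tested, 22.0% in WT and 33.9% in KO were called higher. In each genotype 2 of the 9 passed the filter through the ConA livers, Gbp5 in both, Gbp9 in WT and Gbp4 in KO, and the medians of the other 7 were the same values. In WT they ran from Gbp8 (2.08) to Gbp2 (7.43), and in KO from Gbp8 (2.42) to Gbp2 (8.16). Gbp2 was 3.92, 3.09 and 3.24 TPM in WT saline and 1083, 1141, 464 and 583 TPM in WT ConA. Between KO and WT, 1 of the 9 was called lower in saline, Gbp10 (-0.98, limma adjusted p = 0.0418, and 0.122 with the close pair counted as 1 mouse), beside 12.9% of all genes, and none was called after ConA or in the interaction.

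Of the IRG family genes outside the 8, 6 were tested in WT and all 6 rose, with a median log2 fold change of 1.63, and all 5 tested in KO rose, with a median of 2.15. Over all genes tested, 22.0% and 33.9% were called higher. Gm12185, and in WT also Gm5431, passed the filter only through the ConA livers, and the other 4 genes had medians of 1.86 and 3.41. Gm4841 rose most, by 5.57 in WT and 6.32 in KO, and F830016B08Rik rose by 2.39 and 4.78. Gm4951 rose by 1.32 and 2.04, Gm12185 by 1.94 and 2.15, and Irgq, a divergent member of the family, by 0.77 and 0.90. Gm5431 rose by 0.66 in WT and was too low to test in KO. The pair 9930111J21Rik1 and 9930111J21Rik2 stayed at or below 1.14 TPM in every liver and Irgc1 at or below 0.05. Between KO saline and WT saline, 2 of the 4 tested were called lower in KO, beside 12.9% of all genes tested. These were F830016B08Rik (-1.03, limma adjusted p = 0.0172) and Gm4841 (-0.77, limma adjusted p = 0.0252). Neither call held with the close pair counted as 1 mouse (0.065 and 0.10). F830016B08Rik was 10.3, 6.32 and 8.76 TPM in WT saline and 3.62, 4.12 and 3.04 TPM in KO saline. After ConA it was 72.2, 116, 18.4 and 33.9 TPM in WT and 138, 140.3, 84.5 and 148 TPM in KO. Its response was larger in KO by 2.39 log2 units (limma adjusted p = 0.0435, and 0.106 with the 2 close WT saline livers counted as 1 mouse).

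Among 13 type I interferon genes, 11 were called higher in WT and 12 in KO, beside 22.0% and 33.9% of all genes tested. Their medians were 2.05 and 2.08, and Isg15 rose most (by 4.2 in WT and by 3.61 in KO). Genes at 1 TPM or more in every saline liver had medians of 2.01 (12 type I interferon genes) and 3.45 (6 of the IRG members) in WT, and of 1.97 (11) and 3.97 (6) in KO. Of the 8 autophagy genes that act in loading IRG proteins, 4 were called lower in WT and none higher. In KO 4 were called lower and 2 higher, Atg12 and Gabarap. Among all genes tested, 3336 of 10768 were called lower in WT and 3376 of 10988 in KO. Gabarapl1 fell by 1.96 in WT and by 0.93 in KO. It was called lower in KO saline (-0.66, limma adjusted p = 0.0270), and its ConA response differed by 1.04 (limma adjusted p = 0.0332). Neither call held with the 2 close WT saline livers counted as 1 mouse (0.113 and 0.104). Atg12, part of the conjugate that places these proteins, differed by 0.51 in WT (limma adjusted p = 0.126) and by 1.44 in KO (limma adjusted p = 4.53e-05). Promoter matches were also counted in these lists. The ISRE pattern was found in 5 of 5 guanylate-binding protein promoters in the table, in 2 of 5 of the other IRG family genes, in 7 of 12 of the type I interferon genes, in 2 of 10 of the interferon gamma pathway and in 0 of 6 of the autophagy genes. In the same order, the GAS pattern was found in 2 of 5, 1 of 5, 2 of 12, 3 of 10 and 2 of 6.

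**Figure D5:**
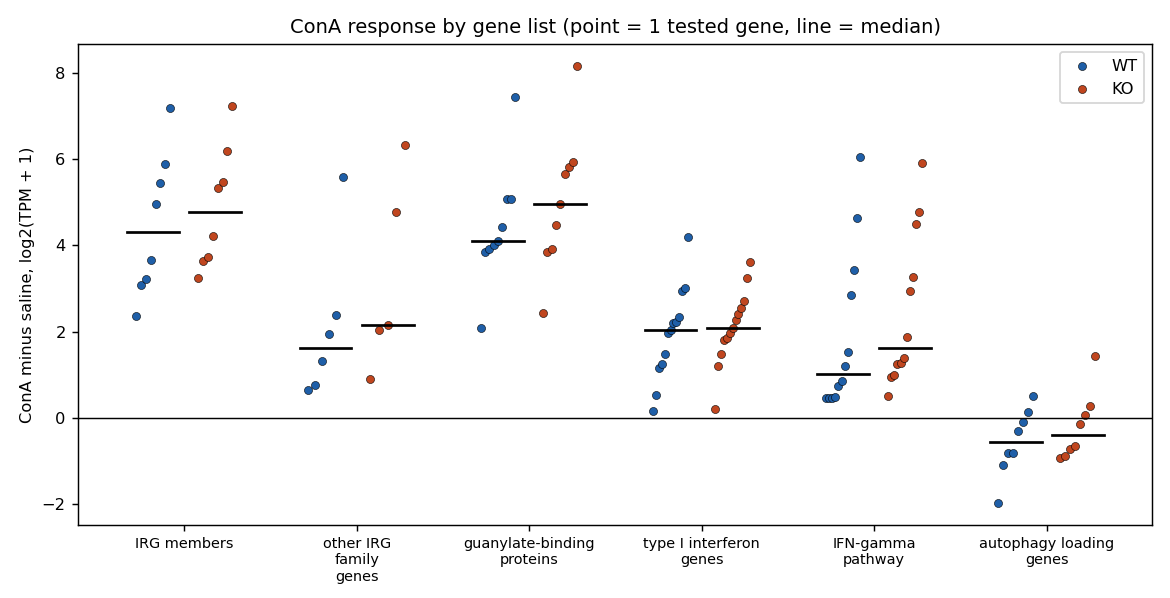
Log2 fold change of ConA against saline in WT and in mice labelled KO for 6 gene lists, on the log2(TPM + 1) scale. Each point is 1 tested gene and each line the list median. The 8 immunity-related GTPases (medians 4.32 and 4.77) and the guanylate-binding proteins (4.10 and 4.96) lie highest, and the autophagy genes lie around 0 with medians of -0.55 and -0.39.

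The chromosomal neighbours of the 8 genes were also compared. Of 20 other genes within 100 kb of a member, 12 were tested in each genotype. In WT 4 rose and 3 fell, and in KO 4 rose and 4 fell, beside 22.0% and 33.9% of all genes called higher. Called lower were 3336 of all 10768 genes tested in WT and 3376 of 10988 in KO. 3 of the 4 that rose in WT, Gm12185, Gm5431 and F830016B08Rik, belong to the IRG family, the first 2 having passed the filter only through the ConA livers, and the fourth was Smim3 (log2 fold change 0.75, limma adjusted p = 0.00111). Mrpl22, the neighbour of Gm12250, fell by 0.37 in WT and by 0.91 in KO. Trim7, next to Irgm1, fell by 0.53 in WT and by 1.01 in KO.

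Markers of liver cell types also moved with ConA. Summed levels of 8 hepatocyte markers were 112284 to 138517 TPM in saline and 54752 to 83053 TPM after ConA, by far the largest of the marker sums in every group. Of the 8, only Tat went up (log2 fold change 0.78 in WT and 0.56 in KO). Neutrophil markers (7 genes) went from 5.30 to 11.1 TPM in saline to 318 to 953 TPM after ConA. In each genotype 6 of the 7 had a positive log2 fold change, the largest that of S100a9 (6.30 in WT and 7.26 in KO). Ly6g went the other way (-1.15 in WT and -0.21 in KO, limma adjusted p = 0.0631 and 0.37). Natural killer cell markers (6 genes) went from 1.46 to 2.19 TPM to 2.87 to 12.1 TPM, and T cell markers (8 genes in the files) stayed between 1.25 and 6.16 TPM. Those of Kupffer cells and macrophages (10 genes) were 59.7 to 198 TPM in saline and 23.6 to 92.2 TPM after ConA. In WT 8 of the 10 were called lower and none higher (median log2 fold change -1.45). In KO 3 were called lower and 1 higher, Cd68 (median -0.525). Called lower over all genes tested were 3336 of 10768 in WT and 3376 of 10988 in KO. No marker was at 0 in all livers of a group. The part of these changes in the level of the IRG genes was not tested.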

How the data were processed

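Total RNA of 14 mouse livers was sequenced by the authors on a BGISEQ-500, with single reads 50 bases long. The deposited values are TPM, made by the authors for each library, with 2 decimals and a sum of about 1000000 over 17656 genes. The submitters' processing notes name Bowtie2, RSEM 1.3.1 and GRCm38.p6, whereas the study's methods name STAR, HTSeq and edgeR, and which of them made the TPM is not given in the sources used here. Depth is unknown, so no counting error could be given, and reads shared by near-identical genes were divided by a rule that is not stated.

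Groups were taken from the sample labels. Values were tested as log2(TPM + 1), and fold changes on that scale understate the change of low genes. The lmFit and eBayes functions of limma 3.58.1, with a mean-variance trend, were run in R 4.3.3 on genes that reached a TPM of 1 in as many libraries as the smaller group holds. Calls required a p, adjusted by Benjamini-Hochberg over all genes tested, under 0.05. Each comparison was fitted on its own groups, and the interaction on all 14 libraries. The spread is between mice. The scripts were tested on simulated data. Promoters came from RefSeq and were searched as spelled out in the text. Alternatives were a pseudocount of 0.1, a TPM filter of 5 or none, rescaling by median ratios, a replicate block, all 14 libraries in each fit, WT saline replicates 2 and 3 averaged, Tgtp1 and Tgtp2 summed, each library left out and, chosen after seeing the data, the sum together with the averaged pair.

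The members, the gene lists and the tests were chosen with earlier results of these data known. Named were the 8 members, the interferon gamma pathway and other IRG genes by role, the extremes of each further list, and the 10 genes most like the family over 14 and over 8 libraries. Neighbours within 100 kb, Gabarap, Cyp2e1 and Atg12 in KO were named after their values were seen. Of the lists, Mx1, Mx2, Gbp11, Irgc and Trbc2 were not analysed here, and 1 gene that the naming rule covers is not reported here by name.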

Additional observations from a re-analysis of the deposited data

Results flagged for a closer look

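Among 45 sets of 4 livers (1 gene in 1 ConA group each), 2 held a liver apart from the others by Dixon's test at the 95% level, and chance alone gives about 1 in 20. Not every gene named here was among the sets. Outside them, Atg12 was 10.02 TPM in WT ConA replicate 3 (nearest liver 21.15 TPM). Gabarapl1, also outside them, was 129.75 TPM in KO ConA replicate 1 (nearest 112.36 TPM). Ifngr2 was 16.76 TPM in WT ConA replicate 3, where the nearest liver was 23.19 TPM. F830016B08Rik was 84.5 TPM in KO ConA replicate 3, where the nearest was 138.08 TPM. All 8 immunity-related GTPase genes were among the genes so tested and none had such a liver.

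The response to ConA differed between the genotypes by the limma interaction for 5 listed genes outside the 8. Over all 11327 genes tested, 541 were called (4.78%). The 5 were 2 of 12 tested in the interferon gamma pathway, 1 of 6 other IRG genes, 1 of 8 autophagy genes and 1 of 8 hepatocyte markers. The other lists held none. The value in mice labelled KO minus that in WT was positive for all 5, and for 299 of the 541. It was 1.14 log2 units for Ifngr2 (adjusted p = 0.0185), 1.06 for Irf1 (adjusted p = 0.0307) and 2.39 for F830016B08Rik (adjusted p = 0.0435), which rose in both genotypes. For Gabarapl1, which fell in both, it was 1.04 (adjusted p = 0.0332) and for Cyp2e1, a hepatocyte marker, 1.17 (adjusted p = 0.0280). None of the 5 stayed called with WT saline replicates 2 and 3 counted as 1 mouse (limma adjusted p 0.0747 to 0.106). The call of Cyp2e1 was also lost after rescaling (1.03, limma adjusted p = 0.0594). Leaving out 1 library gave 1.02 to 1.28 for Ifngr2 (limma adjusted p 0.0120 to 0.0766), 0.93 to 1.18 for Irf1 (0.0219 to 0.0957), 1.94 to 2.81 for F830016B08Rik (0.0184 to 0.119), 0.88 to 1.17 for Gabarapl1 (0.0252 to 0.104) and 1.01 to 1.31 for Cyp2e1 (0.0183 to 0.101). The interaction of Ifng was 1.41 (limma adjusted p = 0.0503).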

How the results depend on the processing

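All 8 genes stayed called higher after ConA in both genotypes in each alternative run (124 of 124 values in WT and 110 of 110 in KO), and between KO ConA and WT ConA 0 of 118 values were called. In KO saline against WT saline, 2009 genes and 2 members were called. Without a filter it was 584 genes and 0 members, with WT saline replicates 2 and 3 averaged 49 genes and 0 members (also with Tgtp1 and Tgtp2 summed), with all 14 libraries in the fit 332 genes and 0 members, after rescaling 1 member, and with 1 library left out 45 to 2739 genes and 0 to 5 members. Irgm1 and Ifi47 lost the call without a filter (limma adjusted p = 0.115 and 0.0887), and Irgm1 after rescaling (0.0567). Genes called in KO ConA against WT ConA were 45 (36 higher, 9 lower), 4 without a filter, 25 after rescaling (12 higher, 13 lower), 640 with all 14 libraries and 5 to 52 with 1 library left out. In the interaction they were 541, 328 without a filter, 28 with the averaged pair (also with Tgtp1 and Tgtp2 summed) and 22 to 769 with 1 library left out, where 0 to 1 members were called. Signs turned only in small values. The interaction of Tgtp1 was 0.05, -0.16 with a pseudocount of 0.1, -0.063 after rescaling and -0.53 to 0.37 with 1 library left out. That of Igtp was 0.06, -0.078 after rescaling, -0.056 with the averaged pair and -0.18 to 0.29. Tgtp2 and Irgm2 in KO ConA against WT ConA gave -0.37 to 0.18 and -0.15 to 0.35 with 1 library left out. The cause of these shifts was not tested.

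Whether replicate numbers pair the mice was not settled. Deviations of same-numbered livers correlated by over 0.1 in some pairs and not in others in each comparison, up to 0.405. Differently numbered livers were not set beside them, so these values cannot decide it. With the replicate block, 140 genes were called between KO ConA and WT ConA, 358 in the interaction and 3 members in KO saline against WT saline, with Irgm2 added.

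With 3 or 4 mice per group and depth unknown, differences near 1 TPM, as for Tgtp2 and Gm12250 in saline, carry the least precision.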
